A study of Mus musculus with 8 samples.

Results

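The 37 aminoacyl-tRNA synthetase genes of the mouse were followed across 4 groups of bone marrow-derived macrophages. They were chosen by gene symbol, as a one-letter amino acid code followed by "ars" with or without a final 1 or 2, plus Eprs, Farsa and Farsb, from a table of 22165 genes. Of the 37, 20 count as cytosolic and 17, whose symbols end in 2, as mitochondrial. Gars and Kars each make both forms from a single gene and were kept with the cytosolic members. All 37 passed the filter on low counts, with 4 to 27 counts as the lowest member's count in a library. The macrophages came from bone marrow of C57BL/6 mice, cultured for 7 days with M-CSF, the macrophage growth factor. Cells were wild type or Nrf2-/-, the latter from mice of the Jackson Laboratory and lacking NRF2, the transcription factor that drives antioxidant genes. They were left untreated or were given 250 µM dimethyl itaconate (DI), a cell-permeable electrophilic ester of itaconate, for 12 h. There were 2 poly(A) RNA libraries per group. The labels do not tie them to separate mice or dishes, so the p-values below reflect library-to-library spread alone, and that spread may be technical.

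Aminoacyl-tRNA synthetases join each amino acid to its tRNA, the step that fixes the genetic code before the ribosome reads it. Separate nuclear genes usually serve the cytosol and the mitochondrion, and the mitochondrial enzymes are imported to translate the few proteins encoded by the mitochondrial genome. In the cytosol 8 members (Eprs, Iars, Lars, Qars, Mars, Kars, Rars and Dars) assemble with scaffold proteins into the multisynthetase complex, while the others work outside it. Many cytosolic synthetase genes are known targets of ATF4, the transcription factor of the integrated stress response, which is turned on when eIF2α is phosphorylated and which also drives amino acid uptake and synthesis.

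Total counts ran from 5554288 to 15680671 per library. Levels are CPM, a gene's counts scaled to a common library size with TMM adjustment, and come from reads near transcript 3′ ends, so levels of different genes were not compared. Changes are log2 fold changes ± standard error from edgeR's quasi-likelihood test, and "called" means a Benjamini-Hochberg adjusted p under 0.05 over 11079 genes. Nfe2l2, the gene that encodes NRF2, stood at 230 to 454 CPM in the wild-type libraries and at 40.2 to 88.0 CPM in the knockout libraries. Where along the gene these reads fall, relative to the deletion, was not examined. The 8 macrophage markers summed to 4899 to 5246 CPM in wild-type untreated, 4643 to 5048 CPM in wild-type DI, 5875 to 6041 CPM in knockout untreated and 3913 to 4469 CPM in knockout DI libraries. With DI in knockout all 8 had values below 0 and 2 were called lower, beside 4% of all tested genes. In wild type 3 of the 8 were called lower with DI, beside 8.68% of all tested genes. DESeq2 called 5 of the 8 lower in knockout and 3 in wild type, beside 551 and 1043 of the 11079 genes. The part of these markers in the synthetase results was not tested. Lymphocyte, dendritic cell, mast cell and erythroid markers summed to at most 6.92 CPM per list. The 9 neutrophil markers summed to 247 to 383 CPM in the 8 libraries. The 5 stromal markers summed to 87.2 to 130 CPM in wild-type and 43.2 to 47.7 CPM in knockout libraries, and their part in differences between genotypes was not tested.

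In wild-type macrophages DI raised 2 synthetase genes, the mitochondrial leucyl-tRNA synthetase gene Lars2 and Farsa, which encodes the catalytic subunit of the cytosolic phenylalanyl enzyme, and lowered none by the test. Lars2 (chromosome 9, 123366927 to 123462666 of mm10, plus strand) stood at 18.9 and 19.6 CPM in untreated and at 89.6 and 58.2 CPM in DI-treated wild-type libraries. The groups did not overlap, and the 3.83-fold rise was 1.94 ± 0.25 on the log2 scale (edgeR adjusted p = 0.000328). Farsa (chromosome 8, 84856989 to 84869257, plus strand) stood at 42.5 and 41.3 CPM untreated and at 69.4 and 70.9 CPM with DI. Its change of 0.74 ± 0.20 had edgeR adjusted p = 0.0277. These 2 calls are 5.41% of the 37 members, near the 6.51% of all tested genes called higher in this comparison, in which 8.68% were called lower. DESeq2 also called these 2 higher and none lower, beside 7.02% of all genes higher, and 12 members had an unadjusted edgeR p under 0.05, 6 of them higher with DI, beside 30.8% of all tested genes either way. Farsa's call was lost without any 1 of the 4 wild-type libraries and without knockout untreated replicate 2, each of which left only Lars2 called. Farsa also lost its call when only the wild-type groups entered the fit (adjusted p = 0.0587) and when a trend with coding A content, set out further on, was removed (adjusted p = 0.0541). In bulk RNA a difference in RNA per cell and a difference in the share of cells of a kind cannot be told apart.

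No other member of either compartment was called in wild type. The cytosolic members had a median log2 change of -0.14, ranging from -0.83 to 0.74, and the mitochondrial members a median of 0.17, ranging from -0.94 to 1.94, against -0.02 over all tested genes. Leaving out replicate 2 of wild-type untreated cells gave a cytosolic median of 0.08, and leaving out replicate 1 of wild-type DI cells gave 0.02, so its sign changed with the libraries used. Several members whose response differed between genotypes had values below 0 here without passing the test. Nars, the asparaginyl enzyme, differed by -0.83 ± 0.33 (edgeR adjusted p = 0.104), Lars, the leucyl enzyme, by -0.71 ± 0.28 (adjusted p = 0.11) and Sars, the seryl enzyme, by -0.65 ± 0.27 (adjusted p = 0.128). Nars was called lower only when no filter on low counts was used.

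In knockout macrophages DI raised 7 synthetase genes and lowered none by the test. They were the cytosolic Sars, Nars, Vars, Eprs, Cars and Gars and the mitochondrial Lars2. These calls are 18.9% of the members, beside 4.49% of all tested genes called higher and 4% called lower in this comparison. Sars (chromosome 3, 108424865 to 108445209, minus strand) stood at 176 and 141 CPM in untreated and at 361 and 472 CPM in DI-treated knockout libraries. This 2.63-fold rise was 1.40 ± 0.28 on the log2 scale (edgeR adjusted p = 0.0127). Nars (chromosome 18, 64499647 to 64516652, minus strand) stood at 259 and 261 CPM untreated and at 819 and 468 CPM with DI. Its DI libraries both lay above the untreated ones but differed widely from each other, and its change was 1.31 ± 0.33 (edgeR adjusted p = 0.0314). Vars, the valyl enzyme (chromosome 17, 35000987 to 35016322, plus strand), stood at 8.04 and 8.13 CPM untreated and at 19.3 and 20.96 CPM with DI. It rose by 1.31 ± 0.29 (edgeR adjusted p = 0.0196).

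Eprs encodes a fused glutamyl and prolyl enzyme (chromosome 1, 185363044 to 185428360, plus strand). Its knockout libraries held 285 and 265 CPM untreated and 503 and 659.6 CPM with DI, a rise of 1.08 ± 0.23 (edgeR adjusted p = 0.0178). Cars, the cysteinyl enzyme (chromosome 7, 143557230 to 143600090, minus strand), went from 56.7 and 49.9 CPM to 107 and 92.7 CPM, a rise of 0.90 ± 0.23 (edgeR adjusted p = 0.0306). Gars, the glycyl enzyme of both compartments (chromosome 6, 55038007 to 55079500, plus strand), went from 38.1 and 35.6 CPM to 66.3 and 63.3 CPM, a rise of 0.82 ± 0.22 (edgeR adjusted p = 0.0434). In each of these 3 genes both DI libraries lay above both untreated libraries. Lars2 went from 26.4 and 26.1 CPM to 72.1 and 77.7 CPM, a 2.85-fold rise of 1.51 ± 0.25 (edgeR adjusted p = 0.00555). Lars2 was thus the member called in both genotypes.

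**Figure D1:**
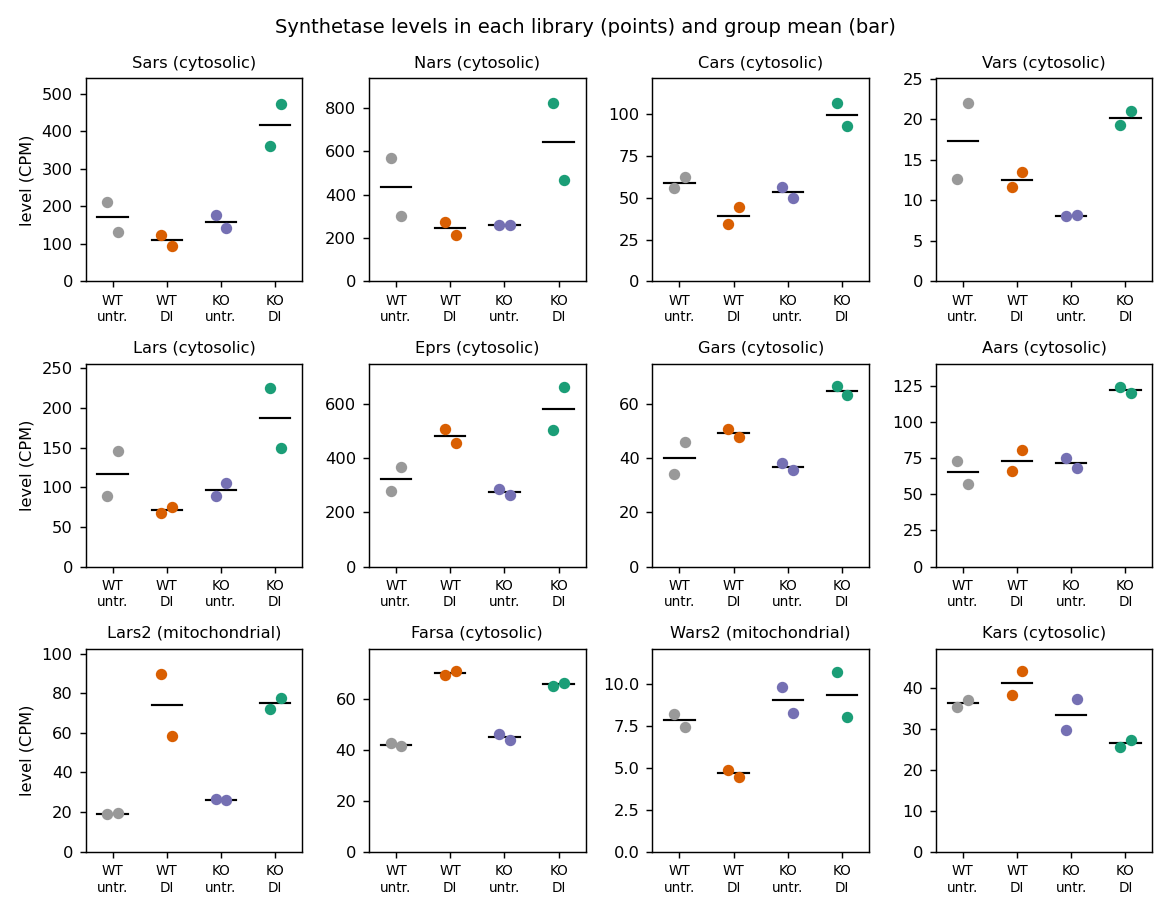
Levels in CPM (y axis, linear from 0) of 12 synthetase genes in each of the 8 libraries, grouped by genotype (WT, wild type; KO, knockout) and treatment (untr., untreated); points are libraries and bars are group means. For Sars, Cars, Aars, Gars and, narrowly, Lars both knockout DI libraries lie above the other 6 libraries. Lars2 and Farsa are high with DI in both genotypes and Wars2 is lowest in wild-type DI.

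The number of calls in knockout cells rests on the untreated libraries. Without knockout untreated replicate 1, or without replicate 2, no member was called, where the remaining untreated library is assumed to vary like the other groups. The count of all genes called fell from 940 to 104 and 111 in these 2 fits. Without knockout DI replicate 1 the members called were 3, and without replicate 2 they were 6, with Eprs, Gars and Vars lost and Fars2 and Lars added. The 7 changes kept their direction without each of the 8 libraries, the smallest being 0.77 for Gars and the largest 1.66 for Nars. DESeq2 called 11 members, adding Aars, Lars, Tars and Fars2, beside 6.39% of all tested genes called higher.

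Considered by compartment, 18 of 20 cytosolic members had values above 0 in knockout DI cells and 6 were called, with a median log2 change of 0.60. Of the 17 mitochondrial members 12 had values above 0 and 1 was called, with a median of 0.23. Over all tested genes 50.2% had values above 0 and 4.49% were called higher, so the 1 mitochondrial call is near that share. In the knockout libraries the mitochondrial members summed to 1179 to 2735 counts and the cytosolic members to 9362 to 28574. The part of this depth in the number of calls was not tested. The median over all tested genes was 0.00. The libraries of the 2 groups did not overlap, with DI higher, for 13 cytosolic and 7 mitochondrial members, beside 29.1% of all tested genes. Across the fits without 1 library the cytosolic median stayed between 0.60 and 0.77 and the mitochondrial median between 0.16 and 0.40. The cytosolic members below 0 were Qars, the glutaminyl enzyme, at -0.60 ± 0.24 (edgeR adjusted p = 0.141) and Kars, the lysyl enzyme, at -0.34 ± 0.22 (adjusted p = 0.354). Kars had 29.7 and 37.4 CPM untreated and 25.7 and 27.3 CPM with DI, so that both DI libraries lay below both untreated ones.

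**Figure D2:**
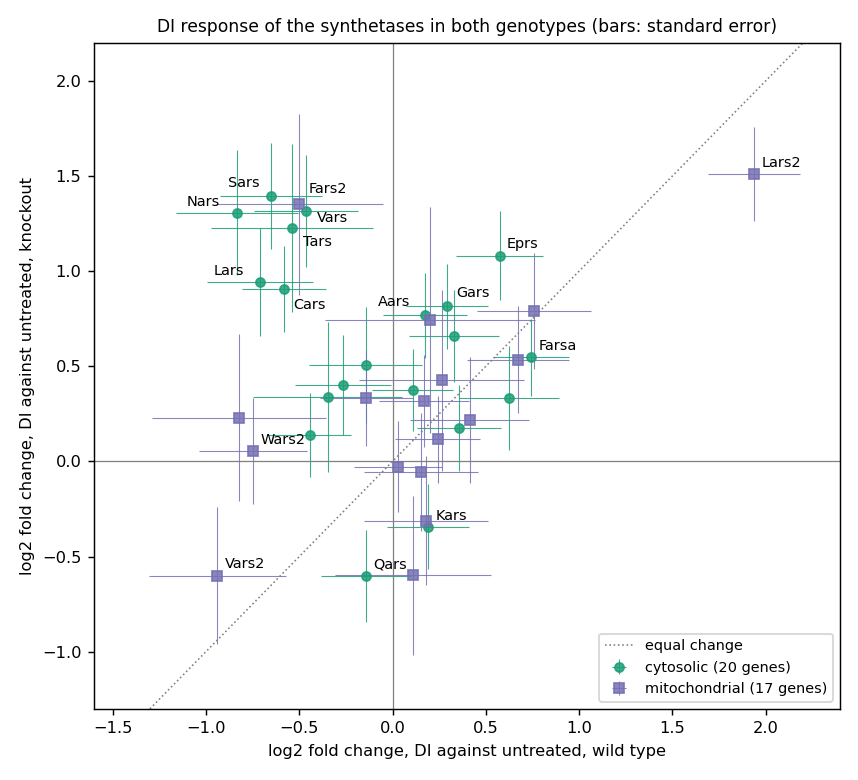
Log2 fold change of DI against untreated cells in wild type (x axis) and in knockout (y axis) for the 37 synthetase genes, with standard errors as bars; the dotted line marks equal change. Sars, Nars, Vars, Tars, Lars, Cars and the mitochondrial Fars2 lie below 0 in wild type and at 0.90 or above in knockout, while Lars2 lies near the line at 1.94 and 1.51.

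Cytosolic members were also counted by whether they belong to the multisynthetase complex. Of the 12 cytosolic members outside the multisynthetase complex, all had values above 0 in knockout DI cells, from 0.17 to 1.40, and 5 were called (Sars, Nars, Vars, Cars and Gars), with a median of 0.79. Of the 8 members of the complex, 6 had values above 0, from 0.14 for Dars to 1.08 for Eprs, and Eprs was called, with a median of 0.42. Over all tested genes 50.2% had values above 0 and 4.49% were called higher. Whether the 2 sets, inside and outside the complex, differ was not tested. Neither set had a call without either knockout untreated library. Without knockout DI replicate 1, 1 member outside the complex was called, and without replicate 2, 3 were called.

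The DI response differed between genotypes for 5 cytosolic genes by the interaction term, in which a positive value means a higher DI effect in knockout. The interaction was 2.14 ± 0.46 for Nars (edgeR adjusted p = 0.0179), 2.05 ± 0.39 for Sars (adjusted p = 0.00997), 1.78 ± 0.41 for Vars (adjusted p = 0.0225), 1.65 ± 0.40 for Lars (adjusted p = 0.0278) and 1.49 ± 0.32 for Cars (adjusted p = 0.0173). These are 13.5% of the members, beside 4.96% of all tested genes called in this direction and 2.59% in the other. No member was called in the other direction by edgeR or DESeq2, and all 7 members with an unadjusted edgeR p under 0.05, a threshold that 26.4% of all tested genes passed, had values above 0. No mitochondrial member was called by either tool, with 1 at an unadjusted p under 0.05. Without the filter on low counts edgeR called Fars2 at 1.85 (adjusted p = 0.00068), in a fit whose share of all genes called is not given here. DESeq2 called 6 members, adding Tars, beside 6.99% of all tested genes. Each of the 5 had a value below 0 in wild type and above 0 in knockout. For Lars (chromosome 18, 42202298 to 42262194, minus strand) the wild-type libraries held 88.9 and 145 CPM untreated and 67.8 and 75.5 CPM with DI. Its knockout libraries held 88.5 and 106 CPM untreated and 225 and 149 CPM with DI. Vars and Nars also had lower values in untreated knockout than in untreated wild-type cells, without being called. Vars had 12.6 and 22.0 CPM in wild type against 8.04 and 8.13 CPM in knockout. Nars had 568 and 301 CPM against 259 and 261 CPM. Sars kept its interaction call in 7 of 8 fits without 1 library, losing it without knockout untreated replicate 2 (edgeR adjusted p = 0.0584). Most fits without 1 library called fewer of the 5, the fewest without either knockout untreated library. The share of all genes called in these fits is not given here, so the loss of calls has no background beside it. The interactions stayed above 0 throughout, at 1.62 to 2.53 for Nars, 1.67 to 2.35 for Sars and 1.31 to 2.12 for Vars. Those of Lars ran from 1.26 to 1.97 and those of Cars from 1.28 to 1.68.

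Under DI, knockout cells had higher levels than wild type of 6 members, the cytosolic Sars, Cars, Lars, Nars and Aars and the mitochondrial Wars2, and no member was called lower. This comparison shares its libraries with both DI comparisons. The calls are 16.2% of the members, beside 11.4% of all tested genes called higher and 9.74% called lower. Sars stood at 124 and 94.9 CPM in wild-type DI against 361 and 472 CPM in knockout DI, a 3.81-fold difference of 1.93 ± 0.28 (edgeR adjusted p = 0.00066). Cars stood at 34.1 and 44.5 CPM against 107 and 92.7 CPM, a difference of 1.34 ± 0.23 (edgeR adjusted p = 0.00179). Lars differed by 1.38 ± 0.29 (edgeR adjusted p = 0.00564) and Nars by 1.40 ± 0.33 (adjusted p = 0.0113). Sars, Cars and Lars kept this call without each of the 8 libraries, and Nars lost it without wild-type DI replicate 2 or knockout DI replicate 1.

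Aars, the alanyl enzyme (chromosome 8, 111033144 to 111057664, plus strand), stood at 66.2 and 80.5 CPM in wild-type DI and at 124 and 120.0 CPM in knockout DI, a difference of 0.73 ± 0.22 (edgeR adjusted p = 0.0359). Its 3′ part shares 1326 annotated exon bases on the same strand with Exosc6, an RNA exosome gene, so reads of the 2 genes there cannot be told apart. Wars2, the mitochondrial tryptophanyl enzyme (chromosome 3, 99141068 to 99239186, plus strand), stood at 4.87 and 4.47 CPM in wild-type DI and at 10.7 and 8.0 CPM in knockout DI. Its difference of 1.002 ± 0.29 had edgeR adjusted p = 0.03. The wild-type untreated libraries held 8.21 and 7.44 CPM of Wars2, so wild-type DI was the low group. Without wild-type DI replicate 2 the members called were 3. Wars2 also lost its call without wild-type DI replicate 1 or knockout DI replicate 1, and Aars lost its call without either library of wild-type DI, knockout untreated or knockout DI. With only the compared groups fitted, Aars (edgeR adjusted p = 0.0773) and Wars2 (adjusted p = 0.0635) were not called.

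Without DI, no synthetase gene was called between the genotypes by edgeR or DESeq2, beside 0.605% of all tested genes called either way by edgeR and 1.72% by DESeq2. At an unadjusted p under 0.05 there were 3 members, all lower in knockout, beside 10.6% of all tested genes either way. The cytosolic median was -0.11 and the mitochondrial median 0.06, against -0.01 over all tested genes. The sign of the cytosolic median changed without wild-type untreated replicate 2 (0.04) and that of the mitochondrial median without knockout untreated replicate 2 (-0.10).

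Of the 16 mitochondrial members other than Lars2, none was called in either DI comparison by edgeR with all 8 libraries and the count filter. In knockout DI their largest change was that of Fars2, the phenylalanyl enzyme, at 1.35 ± 0.48 (edgeR adjusted p = 0.0976). Fars2 was called there by DESeq2 (adjusted p = 0.048), by edgeR without the filter (adjusted p = 0.00053) and by edgeR without knockout DI replicate 2. For the fit without the filter the share of all genes called is not given here. Fars2 had 6.99 and 4.99 CPM in untreated and 20.9 and 9.32 CPM in DI-treated knockout libraries. In wild type its libraries overlapped, with 7.60 and 17.97 CPM untreated and 6.75 and 11.2 CPM with DI. The Lars2 interaction was -0.43 ± 0.34 (edgeR adjusted p = 0.447), which does not show that the 2 genotypes responded alike. The wild-type call of Lars2 held without each of the 8 libraries, with changes of 1.63 to 2.25, while its knockout call was lost without either knockout untreated library (largest adjusted p = 0.0616). Lars2 has an A-rich stretch in its coding sequence, with 12 A in 15 bases. With the trend for such stretches removed its change was 2.24 in wild type and 1.25 in knockout, both still called.

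Other members with large values that passed no test with all 8 libraries and the count filter in edgeR were Tars, Vars2, Nars2, Mars2 and Aars2. Tars was called between genotypes under DI when either untreated library of either genotype was left out, when only the compared groups were fitted and by DESeq2, and Nars2 was called there without knockout DI replicate 1. Tars, the threonyl enzyme, had 82.4 and 32.4 CPM in untreated and 129 and 138 CPM in DI-treated knockout libraries, a change of 1.23 ± 0.44 (edgeR adjusted p = 0.102). The untreated knockout libraries of Tars differed widely from each other, and both DI libraries lay above them. The mitochondrial valyl gene Vars2 had values below 0 with DI in both genotypes, -0.94 ± 0.37 in wild type (edgeR adjusted p = 0.105) and -0.60 ± 0.36 in knockout (adjusted p = 0.311). Mars2, the mitochondrial methionyl enzyme, had values above 0 in both, 0.76 ± 0.31 (edgeR adjusted p = 0.113) and 0.79 ± 0.31 (adjusted p = 0.127). Nars2, the mitochondrial asparaginyl enzyme, differed by -0.82 ± 0.47 in wild type and 0.23 ± 0.44 in knockout. Aars2, the mitochondrial alanyl enzyme, differed by 0.74 ± 0.60 in knockout, from 4 and 20 counts untreated.

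The enzymes for the same amino acid were set side by side, cytosolic against mitochondrial, in 17 pairs over 16 amino acids. In knockout DI the cytosolic change was the greater in 12 pairs, with a median difference of 0.43. Serine gave 1.40 for Sars against -0.60 for Sars2, valine 1.31 for Vars against -0.60 for Vars2 and asparagine 1.31 for Nars against 0.23 for Nars2. The Sars2 value, -0.60 ± 0.42, was not called (edgeR adjusted p = 0.39). It came from 26 and 45 counts untreated (4.55 and 4.88 CPM) and 30 and 30 with DI (3.20 and 3.04 CPM). The 5 pairs with the greater mitochondrial change were leucine, methionine, histidine and both phenylalanine subunits. In wild-type DI the cytosolic change was the greater in 7 of 17 pairs, with a median difference of -0.03. Leucine had the widest gap there, -0.71 for Lars against 1.94 for Lars2. These pairs are a description with no test, and Eprs and Fars2 each enter 2 of them.

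**Figure D3:**
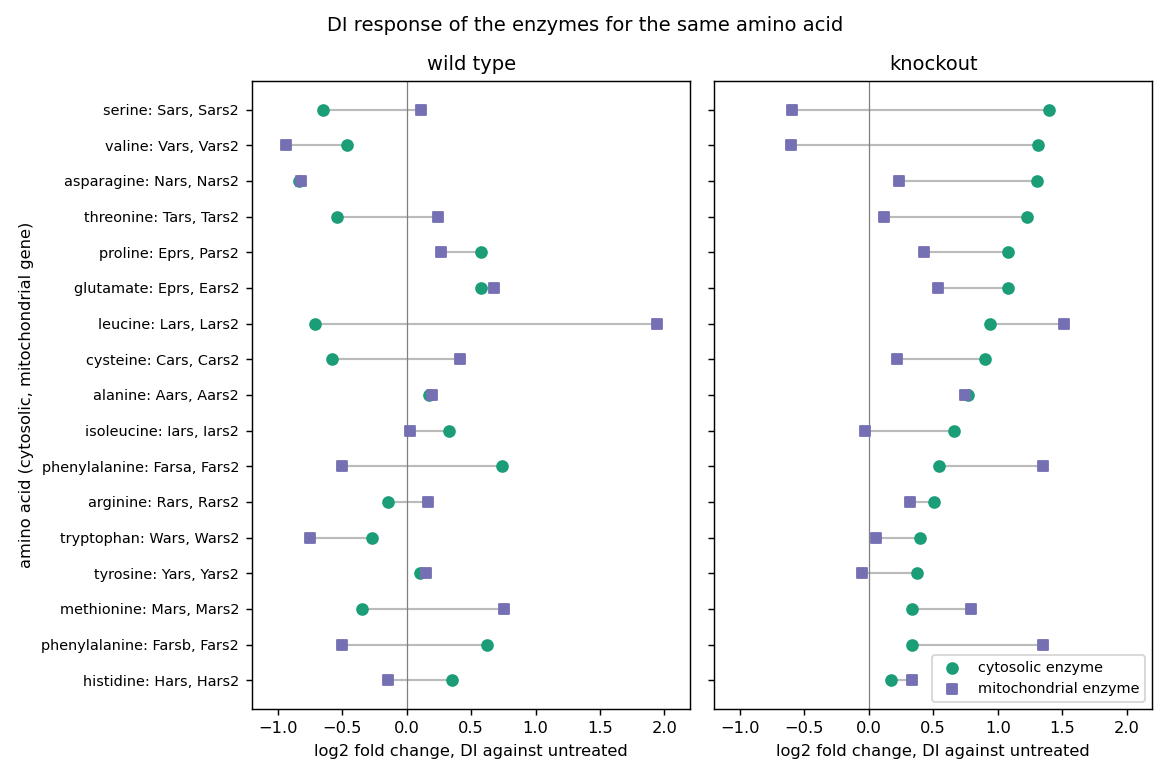
Log2 fold change of DI against untreated cells (x axis) for the cytosolic (circles) and mitochondrial (squares) enzyme of each of 16 amino acids, in wild type (left) and knockout (right), ordered by the cytosolic change in knockout. In knockout 12 of 17 circles lie to the right of their squares, against 7 of 17 in wild type.

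Summed over members, the cytosolic level was 1898 and 1843 CPM in wild-type untreated, 1777 and 1766 CPM in wild-type DI, 1637 and 1512 CPM in knockout untreated and 3048 and 2807 CPM in knockout DI libraries. The 2 knockout DI libraries were thus the highest of the 8, with a mean 1.86-fold above untreated knockout cells. This sum weighs members by their counts, and Nars, Eprs and Sars, all called in knockout, carry much of it. Their knockout means were 260, 275 and 158 CPM untreated and 643, 581 and 417 CPM with DI. The 1.86-fold rise is therefore not that of a typical cytosolic member. The mitochondrial sum was 199 and 208 CPM, 266 and 268 CPM, 206 and 207 CPM and 292 and 274 CPM in the same order. It was 1.31-fold higher with DI in wild type and 1.37-fold higher in knockout, without overlap in either. Without Lars2, a setting chosen after the data were seen, the mitochondrial sum was 1.05-fold higher in wild type, where the libraries overlapped, and 1.15-fold higher in knockout, where they did not.

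The ratio of the cytosolic to the mitochondrial sum within a library does not depend on library scaling and was used only to compare libraries. It was 9.20 ± 0.50 in wild-type untreated, 6.64 ± 0.07 in wild-type DI, 7.63 ± 0.45 in knockout untreated and 10.4 ± 0.14 in knockout DI cells (mean ± SD, n = 2 each). On the log2 scale it changed by -0.47 with DI in wild type and by 0.44 with DI in knockout, so the libraries moved in opposite directions. Without Lars2 the wild-type change was -0.14, with 10.1 and 8.43 in DI libraries overlapping 10.6 and 9.77 in untreated ones, while the knockout change was 0.69. The mitochondrial transcripts' share of counts, a sign of RNA and cell quality, was 1.30 and 1.37% in wild-type untreated, 1.59 and 2.10% in wild-type DI, 1.42 and 1.49% in knockout untreated and 1.02 and 1.54% in knockout DI libraries. Its part in the ratio was not tested.

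**Figure D4:**
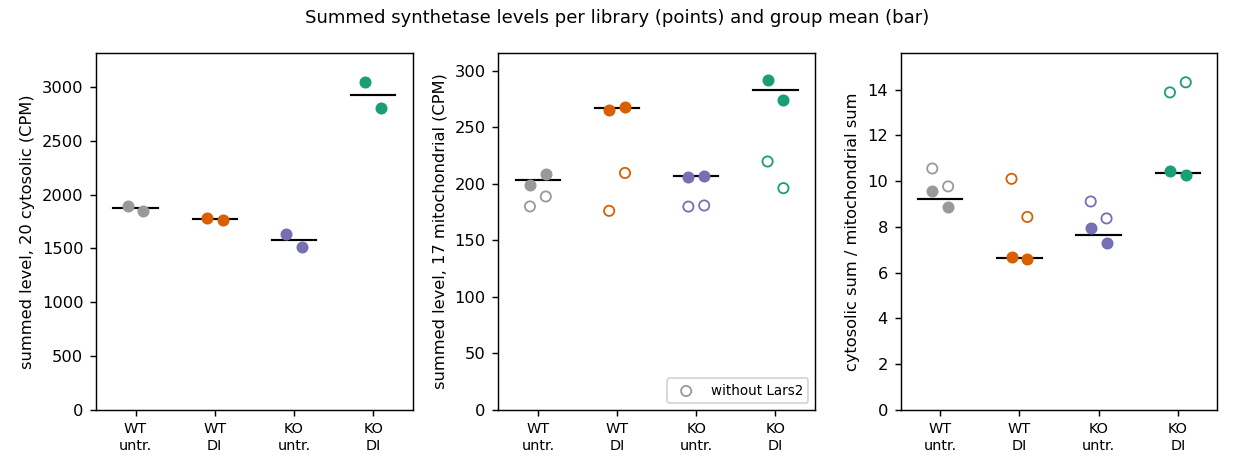
Summed level of the 20 cytosolic (left) and 17 mitochondrial (middle) synthetase genes in CPM and the ratio of the 2 sums (right), for each of the 8 libraries (filled points; bars are group means) and without Lars2 (open points). The cytosolic sum is highest in the 2 knockout DI libraries, 3048 and 2807 CPM, and the open points show how much of the mitochondrial rise with DI came from Lars2.

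Oligo-dT, the primer of these libraries, can also bind stretches of A within a message, and log2 changes moved with the A content of the coding sequence over all genes, for which the cause was not tested. Tested genes with at least 12 A in some 15 coding bases had a median change of 0.27 with DI in knockout and -0.28 in wild type, and those with at most 9 A had -0.15 and 0.14. The members hold 2 genes of the first kind, Eprs with 13 A and Lars2 with 12 A, and 13 of the second, 9 of them mitochondrial. With this trend removed the cytosolic median in knockout DI was 0.65 and the mitochondrial median 0.24. The share of all genes called with the trend removed is not given here, so the calls of that fit have no background beside them. The members called in knockout were then 5, namely Aars, Cars, Lars2, Sars and Vars. The calls of Eprs, Gars and Nars were lost (edgeR adjusted p = 0.0525, 0.0511 and 0.0711). The interaction calls were then 3, Cars, Sars and Vars, with Lars at edgeR adjusted p = 0.0754 and Nars at 0.0565. In wild type Eprs was then called higher at 0.93 (adjusted p = 0.0191), and the cytosolic median there became 0.02.

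RefSeq promoter windows (GRCm38.p6) from 250 bases before to 50 after the start were searched on both strands, for the 27 members that have one. Whether a match bears on the changes with DI was not tested. Cars, Hars, Hars2, Lars, Nars, Pars2, Rars, Vars and Wars are among those with no window here. The core of the C/EBP-ATF response element, TGATGNAA (TTNCATCA on the other strand), which ATF4 can bind, was present in 5 of 13 cytosolic and 0 of 14 mitochondrial members, beside 3.97% of all 32851 windows. Members are counted once each, whereas a gene can have several windows, so these shares differ in unit. The 5 were Aars, Gars, Tars, Iars and Yars, and the matches of Iars and Yars lie after the start. Sars, Eprs, Farsa and Lars2, which were called with DI, had no match in these letters. The matches of Gars and Tars, which lie before the start, are shown with the element in capitals, in the order chr6:55037960-55037989 and chr15:11399659-11399684, read 5′ to 3′ along the gene.
Gars: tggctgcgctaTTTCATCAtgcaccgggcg
Tars: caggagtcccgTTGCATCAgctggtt
Knockout DI changes were 0.77 ± 0.22 for Aars (edgeR adjusted p = 0.0525), 0.82 ± 0.22 for Gars, 1.23 ± 0.44 for Tars, 0.66 ± 0.24 for Iars (adjusted p = 0.11) and 0.38 ± 0.22 for Yars (adjusted p = 0.295). Of these 5, only Gars was called there.

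The core of the NRF2 binding element, TGACNNNGC (GCNNNGTCA on the other strand), was present in 3 of 13 cytosolic and 3 of 14 mitochondrial members, beside 12.4% of all windows. Here too members are counted once each and the background is counted by window. These were Aars, Iars, Mars, Aars2, Lars2 and Nars2. Lars2 is shown because it rose in both genotypes. Its window holds the core in 2 places, in capitals, at chr9:123366793-123366872 on the plus strand.
Lars2: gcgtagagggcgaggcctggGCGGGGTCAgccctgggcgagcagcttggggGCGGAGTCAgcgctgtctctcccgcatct
A match describes the letters and is not evidence of binding.

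Genes that work with the synthetases were counted in the same way. Of the 10 tested scaffold and related genes, Eef1e1, a scaffold of the multisynthetase complex, rose with DI in wild type and Tarsl2, a second threonyl synthetase, and Dtd2, which removes D-amino acids from tRNA, fell, beside 6.51% of all tested genes called higher and 8.68% called lower. Eef1e1 went from 21.5 and 20.9 CPM to 50.4 and 50.6 CPM in wild type, a rise of 1.25 ± 0.21 (edgeR adjusted p = 0.00175). In knockout it stood at 20.8 and 19.8 CPM untreated and 22.8 and 23.4 CPM with DI, and its interaction was -1.07 ± 0.30 (edgeR adjusted p = 0.0472). Tarsl2 fell by 1.83 ± 0.42 in wild type (edgeR adjusted p = 0.0123) and had an interaction of 2.88 ± 0.59 (adjusted p = 0.0138). These values lie near the floor, with 10 and 17 counts in wild-type DI and 13 and 24 in untreated knockout libraries. Its untreated wild-type libraries held 3.84 and 7.37 CPM. Trnt1, which adds the CCA end to tRNA, had an interaction of 1.13 ± 0.32 (edgeR adjusted p = 0.0487). Over all tested genes 4.96% had a positive and 2.59% a negative interaction call. None of the 10 was called with DI in knockout by edgeR or DESeq2, with 1 at an unadjusted p under 0.05, beside 26.4% of all tested genes. The calls of Tarsl2 and Dtd2 were both lost without wild-type untreated replicate 2 or either wild-type DI library, and that of Dtd2 also without knockout untreated replicate 1. The interaction calls of Eef1e1 and Trnt1 were lost without each of the 8 libraries in turn, and that of Tarsl2 without either knockout untreated library or wild-type untreated replicate 2.

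Of 24 tested ATF4 pathway genes, amino acid transporters, synthesis enzymes and stress factors among them, 9 rose and 0 fell with DI in knockout, with a median of 0.77. In wild type 4 rose and 2 fell, with a median of 0.25. Over all tested genes 4.49% were called higher and 4% lower in knockout, and 6.51% higher and 8.68% lower in wild type, so the 2 that fell are near the share over all genes. Trib3, a pseudokinase induced by ATF4, rose by 1.54 ± 0.22 in knockout (edgeR adjusted p = 0.00317) and differed by 0.35 ± 0.22 in wild type (adjusted p = 0.304). Ppp1r15a, which encodes a subunit of the eIF2α phosphatase, went from 38.3 and 29.5 CPM to 145 and 176 CPM in knockout, a rise of 2.25 ± 0.24 (edgeR adjusted p = 0.000938). In wild type it rose by 0.78 ± 0.23 (edgeR adjusted p = 0.0416), a call lost without any 1 of the wild-type or untreated knockout libraries. Slc7a11, the cystine importer and also a known NRF2 target, went from 4.72 and 3.69 CPM to 131 and 129 CPM in wild type, a rise of 4.96 ± 0.31 (edgeR adjusted p = 3.02e-06). In knockout it rose by 2.08 ± 0.42 (edgeR adjusted p = 0.014), a call lost without replicate 1 of either knockout group. That rise started near the floor, from 0.35 and 1.30 CPM untreated (2 and 12 counts). With DI the knockout libraries held 3.95 and 3.85 CPM of Slc7a11, about the level of untreated wild type. Its interaction was -2.88 ± 0.57 (edgeR adjusted p = 0.012). Nupr1, a stress-induced chromatin protein, fell by 1.77 ± 0.23 in wild type (edgeR adjusted p = 0.000348). Without knockout untreated replicate 1 or 2 the rising genes in knockout were 3 and 4, and without knockout DI replicate 1 they were 6. In wild type 2 rose without wild-type untreated replicate 2, and 1 fell without wild-type untreated replicate 1. Of 19 mitochondrial translation partners, Gfm2, a ribosome recycling factor, rose by 0.91 ± 0.23 in knockout (edgeR adjusted p = 0.0314), and Mrrf, another, fell by 0.95 ± 0.29 in wild type (adjusted p = 0.0425). The 1 call of 19 in each genotype is near or below the share of all tested genes called in that direction, 4.49% higher in knockout and 8.68% lower in wild type. The Gfm2 call was lost without any 1 of the 4 knockout libraries. The Mrrf call was lost without wild-type untreated replicate 2, wild-type DI replicate 1 or either knockout untreated library. Of 9 elongation and termination factors 1, the termination factor Gspt1, rose in knockout, by 1.15 ± 0.24 (edgeR adjusted p = 0.0145), beside 4.49% of all tested genes, and the call was lost without either knockout untreated library or knockout DI replicate 1. No gene of the 10 on the list of eIF2α kinases and their targets was called with DI by edgeR. At an unadjusted edgeR p under 0.05 there were 1 in wild type and 3 in knockout, beside 30.8% and 26.4% of all tested genes. These counts are near or below those shares. DESeq2 called 1 lower in wild type, beside 1043 of all 11079 tested genes.

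Between genotypes under DI, 10 of the ATF4 pathway genes were called higher in knockout and 2 lower, and every fit without 1 library kept 8 to 10 higher and 2 lower. The scaffold list then had 2 higher and 1 lower, and its 2 higher calls were lost without either wild-type DI library or knockout DI replicate 1, with 1 left without knockout untreated replicate 1 or knockout DI replicate 2. Over all tested genes 11.4% were called higher and 9.74% lower in this comparison. Among the 19 mitochondrial translation partners 2 were higher, near that share, of which 1 stayed called when a wild-type DI library was left out and 0 when knockout DI replicate 2 was.

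Some members overlap other genes, and the strand setting of the authors' counting is unknown here. Mars, the methionyl enzyme, shares 68 exon bases on the opposite strand with Ddit3, a stress-response gene, at their 3′ ends. Mars was called in no comparison by edgeR with all 8 libraries and the count filter. Between genotypes under DI it differed by 1.12 ± 0.40 (edgeR adjusted p = 0.0655), and it was called there without either knockout untreated library, with only the compared groups fitted, without the filter and by DESeq2. It had 40.9 and 14.9 CPM in the untreated knockout libraries. Hars and Hars2 share 195 exon bases on opposite strands at their 5′ ends, and Iars2 shares 2034 with Rab3gap2. None of Hars, Hars2 and Iars2 was called in any comparison by edgeR.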

How the data were processed

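RNA from 8 libraries, 2 in each of 4 groups, was read near transcript 3′ ends after priming with an oligo-dT of 15 bases and 12 PCR cycles, per the labels' protocols. The authors deposited 1 table of whole-number read counts per gene. STAR, HTSeq and DESeq2 and the build mm10 are named in the submitters' processing notes; the annotation release, the strand setting of the counting and tool versions are not given in the sources used here. Gene symbols and coordinates came from GENCODE M21, which matched 21822 of 22165 gene IDs (the other 343 held 0.0606% of counts). Total counts, 5554288 to 15680671 per library, set the counting precision, and 11079 genes passed edgeR's filterByExpr with a minimum count of 10. These were fitted over all 8 libraries with TMM scaling and robust quasi-likelihood tests (edgeR 4.0.16, R 4.3.3), with Benjamini-Hochberg adjustment over all tested genes. Comparisons were DI against untreated in each genotype, their interaction, and knockout against wild type with and without DI. Alternatives were DESeq2 1.42.0, its size factors in edgeR, no filter, a replicate block, each library left out, only the groups compared, and removal of a trend on the largest number of A in 15 coding bases. The members and gene lists were chosen with earlier results of these data known. Every called member was named, with up to 6 uncalled members of largest change under DI, and up to 4 genes per added list by smallest p under DI; some of those were left to the counts. 1 label field spells the compound differently from the treatment protocol, which was followed. The pair of 1 amino acid and 1 promoter sequence are not reported here.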

Additional observations from a re-analysis of the deposited data

Results flagged for a closer look

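For 5 cytosolic synthetase genes the DI effect differed between the genotypes by edgeR's interaction test, with all 5 below 0 in wild type and above 0 in knockout. The difference, knockout minus wild type on the log2 scale, was 2.14 for Nars, 2.05 for Sars, 1.78 for Vars, 1.65 for Lars and 1.49 for Cars. No mitochondrial synthetase met this rule. The 5 are 13.5% of the members, beside 4.96% of all tested genes called in this direction. That none of the 17 mitochondrial members was called is near that share. None of the 5 wild-type values was itself called, and in knockout DI that of Lars was not (edgeR adjusted p = 0.058).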

How the results depend on the processing

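Of the 20 calls among the synthetases over the 5 comparisons, 12 held under every alternative that kept all libraries and 4 held without each single library (Lars2 in wild-type DI, and Cars, Lars and Sars between genotypes under DI), and no call changed direction. Without single libraries the members called higher ranged from 1 to 2 in wild-type DI, from 0 to 8 in knockout DI, from 0 to 5 for the interaction and from 3 to 7 between genotypes under DI, and 0 to 0 in untreated cells. Members called lower were 0 to 0 in each. The share of all genes called in each of these fits is not given beside these ranges. With only the compared groups fitted, 1 member was called higher in wild-type DI. Without the filter on low counts, 11 were called higher in knockout DI, 1 lower in wild-type DI (Nars) and 2 lower in untreated knockout cells (Fars2 and Vars). Fars2 and Tars were added to the interaction calls. That fit took in 15299 genes, and its share of all genes called is not given here, so these counts have no background beside them. Its edgeR adjusted p for Nars in knockout DI was 2.97e-05 against 0.0314 with the filter, while Farsa in wild-type DI had 0.0334 against 0.0277. DESeq2 called 11 higher in knockout DI. Removing the A-rich trend left 3 interaction calls, in a fit whose share of all genes called is not given here. The log2 change of the cytosolic to mitochondrial ratio was -0.47 in wild-type DI (-0.52 to -0.41 without single libraries, -0.19 from geometric means, -0.14 without Lars2). In knockout DI it was 0.44 (0.38 to 0.50, 0.32 and 0.69). Between untreated genotypes it was -0.27 (-0.33 to -0.21, and -0.17 from geometric means). Between genotypes under DI it was 0.64 (0.63 to 0.65, 0.35 and 0.61), 0.59 with the A-rich trend removed and 0.67 without Gars and Kars. Leaving out Lars2 was chosen after the data were seen. A change in those values shows only which genes carry weight in the sums, and the cause was not tested. Same-numbered libraries of different groups deviated together only weakly (r from -0.08 to 0.16 over 6 pairs of groups), so the numbers were not taken as pairs. With the replicate block the members called were 2, 7, 5, 0 and 6, as without it. With 2 libraries a group, a left-out library leaves a group of 1, which is assumed to vary like the other groups, and members at 4 to 27 counts are limited by depth.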
